A study of Homo sapiens with 9 samples.

Results

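Among the genes measured in MDA-MB-231 cells, 121 of 60708 were low while splicing was inhibited and then stood above the control level 24 h after the inhibitor. MDA-MB-231 is a human cell line from a triple-negative breast cancer, and pladienolide B (PdB) is a macrolide inhibitor of splicing. Polyadenylated RNA was sequenced from 3 libraries of cells given 10 nM PdB for 16 h, 3 libraries of cells collected 24 h into recovery from that treatment, and 3 libraries of cells given the vehicle DMSO. All groups came from the same unmodified line in the same medium, and the same DMSO libraries were the control for PdB and for recovery. The labels give no time for DMSO and do not say that replicates were separate cultures, so p-values cover the spread between the 9 samples alone, and that spread may be technical.

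Levels are given in CPM, the count of a gene divided by the total of its library and multiplied by 1000000. Members were chosen on these values: a PdB mean of 0.5 or less of the DMSO mean, a recovery mean of 2 or more times the DMSO mean, a recovery mean of at least 2 CPM, and all 3 libraries of PdB and of recovery outside the range of the DMSO libraries. Of 13484 genes with 2 CPM or more at recovery, 4011 met the PdB condition, 1706 met the recovery condition and 121 met both. Over the 20812 genes that passed the expression filter of the tests, the PdB fold and separation alone were met by 27.7% and those of recovery alone by 16.8%. All 121 members passed that filter. Because these contrasts chose the members, the values of members below are a description and carry no test.

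Pladienolide B binds SF3B, a complex within the U2 snRNP that helps this splicing particle find the branch point of an intron. When the branch point is not recognised, introns can be kept or exons skipped, and such transcripts can be held in the nucleus or degraded. Genes without introns do not depend on this step. Counts per gene do not measure splicing itself. In bulk RNA, fewer cells of a kind and less RNA per cell cannot be told apart, and total RNA per cell was not measured.

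The libraries held 56389689 to 67047079 counts. Markers of this mesenchymal-like line were present, though SPARC, itself a member, averaged only 0.437 CPM in PdB, 2.09 CPM at recovery and 0.992 CPM in DMSO. The 10 genes of this marker list summed to 6620 to 6760 CPM in PdB, 5320 to 5560 CPM at recovery and 9280 to 9330 CPM in DMSO. Of 11 luminal breast markers, the oestrogen receptor gene ESR1 had 0 counts in all 9 libraries, and PGR and FOXA1 stayed under 1 CPM. The luminal list still summed to 902 to 1120 CPM in PdB, 1490 to 1740 CPM at recovery and 1370 to 1620 CPM in DMSO. Its highest genes were the keratins KRT8 and KRT18, with means of 680 and 487 CPM in DMSO. Of 10 genes in the leukocyte marker list, 7 stayed under 1 CPM in each group. No pair of libraries within a group agreed within counting noise (chi-square per degree of freedom 4.87 to 24.1).

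Together the members held a small and sharply changing share of the RNA. Their summed level was 623, 597 and 664 CPM in PdB libraries, 4870, 4860 and 4820 CPM at recovery and 2040, 1950 and 2050 CPM in DMSO libraries. The PdB mean of a member over its DMSO mean, its PdB ratio, was 0.0594 to 0.496, with a median of 0.326, and 33 members were at 0.25 or less. The recovery mean over the DMSO mean, its recovery ratio, was 2.0 to 7.23, with a median of 2.3. Most members passed the recovery threshold by little: 74 were under 2.5-fold, 18 reached 3-fold and 7 reached 4-fold. Between PdB and recovery the levels differed by 4.1-fold to 48.9-fold, with a median of 7.89. Levels at recovery ran from 2.04 to 754 CPM, with 64 members at 10 CPM or more and 9 at 100 CPM or more. The median coefficient of variation between replicates was 23.9% in PdB, 7.03% at recovery and 12.1% in DMSO. In 8 members at least 1 PdB library held 3 or fewer counts, and counting error alone is then large.

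**Figure D1:**
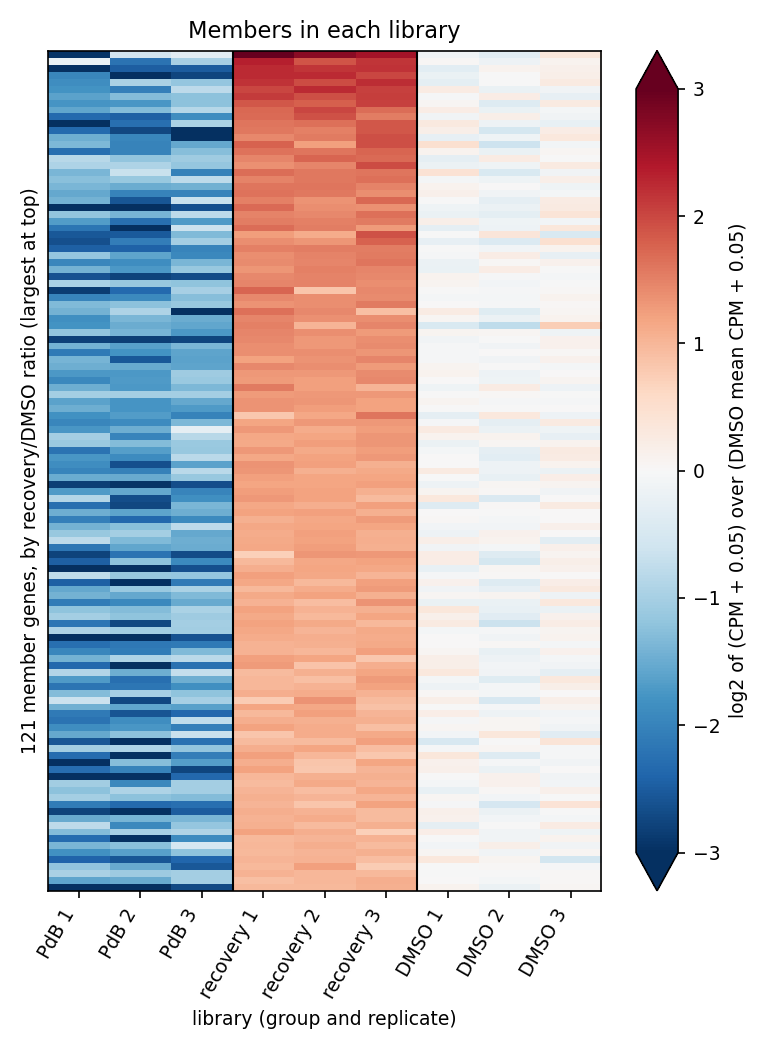
Each row is 1 of the 121 members and each column 1 library, with PdB left, recovery in the middle and DMSO right. Colour is the log2 of the CPM over the DMSO mean, with 0.05 added to both. The PdB columns are low and the recovery columns high in every row, which the choice of members fixes. Rows are ordered by the recovery ratio, with 7.23 at the top and 2.0 at the bottom.

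**Figure D2:**
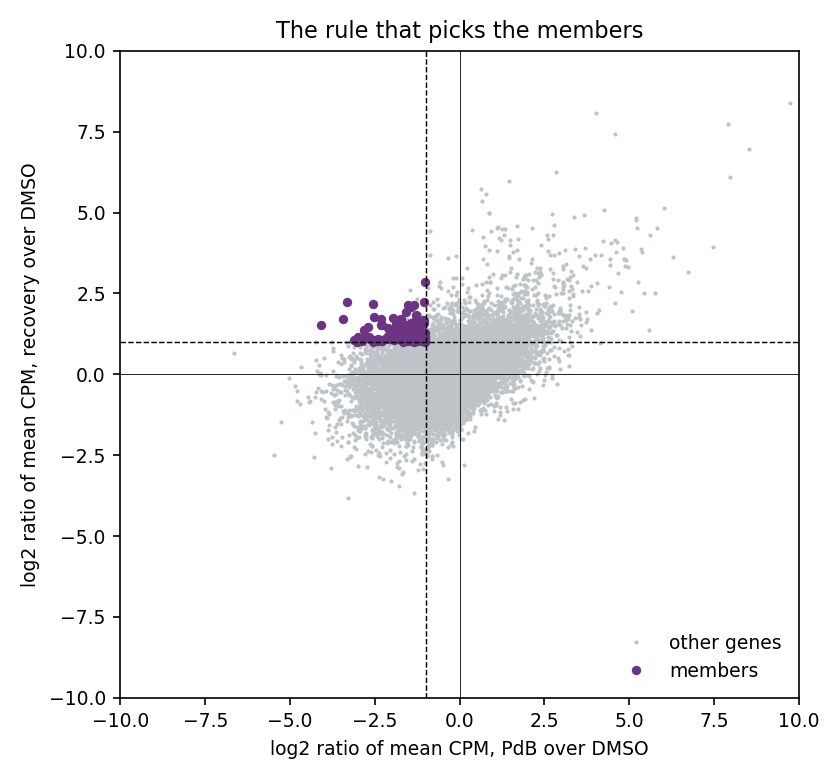
Each point is 1 of the 13484 genes with a recovery mean of at least 2 CPM, with the log2 ratio of mean CPM of PdB over DMSO on the x axis and of recovery over DMSO on the y axis. The 121 members fill the upper left corner, and many lie near its edges, at a PdB ratio of 0.5 or a recovery ratio of 2.

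The edges of the set were not gaps. Just inside the PdB threshold lay LINC00842 (ratio 0.4947), CIDECP1 (0.4955) and TGFBR3 (0.4962), and just outside it, with all other conditions met, CASP4 (0.5004), TIRAP (0.5006) and AHRR (0.5034). Just inside the recovery threshold lay HELZ2 (2-fold), IQCJ-SCHIP1 (2.003-fold) and MON1B (2.005-fold), and just outside it KLHL35 (1.986-fold), KLHDC8B (1.987-fold) and KIF21A (1.987-fold). At the minimum level, TMEM262 (2.04 CPM), ELN-AS1 (2.077 CPM) and SPARC (2.085 CPM) were inside, and LYPLAL1-DT (1.946 CPM), PREX1 (1.906 CPM) and CLTRN (1.869 CPM) outside. Membership of the genes near an edge therefore depended on how libraries were scaled. With TMM factors, which average 0.898 in PdB, 1.08 at recovery and 1.03 in DMSO, the PdB log2 ratios shifted by 0.20 and the recovery log2 ratios by -0.07, and 76 genes met the rule. With the size factors of the DESeq2 kind (RLE) the shifts were 0.29 and -0.03, and 78 genes met it. All of these were among the 121, and 70 met the rule under both. The other members did not, which is not repeated below at every gene it holds for. Under both scalings all 121 members kept a PdB ratio below 1 and a recovery ratio above 1. The choice of members fixes this, as shifts of this size cannot move a ratio from 0.5 or 2 past 1.

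In the account that follows the members are grouped by what their products are known to do. The groups were made after the values were seen and carry no claim of enrichment.

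The member with the most counts was POLR2A, which encodes the catalytic subunit of RNA polymerase II, the enzyme that transcribes protein-coding genes. POLR2A (ENSG00000181222.19, chr17:7484366-7514616, plus strand, GRCh38) had 44.7, 40.3 and 42.6 CPM in PdB libraries, 741, 771 and 749 CPM at recovery and 294, 268 and 262 CPM in DMSO libraries. The 3 groups were far apart and each was tight, with means of 42.5 ± 2.19 CPM in PdB, 754 ± 15.7 CPM at recovery and 275 ± 17.0 CPM in DMSO (SD, n = 3 each). The PdB mean was 0.155 of the DMSO mean, a 6.46-fold lower level, and the recovery mean was 2.74 times the DMSO mean. Recovery stood 17.7-fold above PdB. Per kilobase of its exons, its level was 5.09 CPM in PdB, 90.2 CPM at recovery and 32.9 CPM in DMSO. POLR2A alone held enough counts that, without it, the summed level of the members was 557 to 621 CPM in PdB, 4070 to 4130 CPM at recovery and 1680 to 1780 CPM in DMSO. It met the rule with TMM and RLE factors as well and with any single library left out. Its promoter is shown because no other member held as many counts. The RefSeq window (GRCh38.p14, chr17:7484116-7484415, plus strand, 250 bases before to 50 after the annotated start) holds 2 GC boxes, in capitals, the letters GGGCGG that Sp1-type factors are known to bind, starting at positions -67 and -52 from the annotated start:

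POLR2A: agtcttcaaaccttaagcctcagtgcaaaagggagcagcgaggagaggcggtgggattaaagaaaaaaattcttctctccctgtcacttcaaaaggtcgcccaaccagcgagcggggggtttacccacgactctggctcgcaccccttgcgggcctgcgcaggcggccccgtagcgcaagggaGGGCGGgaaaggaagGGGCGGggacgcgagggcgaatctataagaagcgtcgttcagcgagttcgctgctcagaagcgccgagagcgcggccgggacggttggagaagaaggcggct

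No other subunit of the polymerase was a member. The genes of the 11 other subunits, looked up after POLR2A was seen, had PdB means of 0.758 to 2.14 times DMSO, with a median of 0.969, and 6 of the 11 were below 1. Their recovery means were 0.709 to 1.88 times DMSO, with a median of 1.41. The lowest PdB ratio among them, 0.758 in POLR2C, was well above the 0.155 of POLR2A. POLR2B, the subunit next to it in size and its partner at the active site, averaged 171 ± 0.746 CPM in PdB, 271 ± 4.73 CPM at recovery and 192 ± 2.19 CPM in DMSO (SD, n = 3 each). In POLR2F, a small subunit shared with the other nuclear polymerases, the levels were 76.8 ± 5.82 CPM in PdB, 56.9 ± 2.15 CPM at recovery and 35.9 ± 2.61 CPM in DMSO, so that PdB was the highest group.

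**Figure D3:**
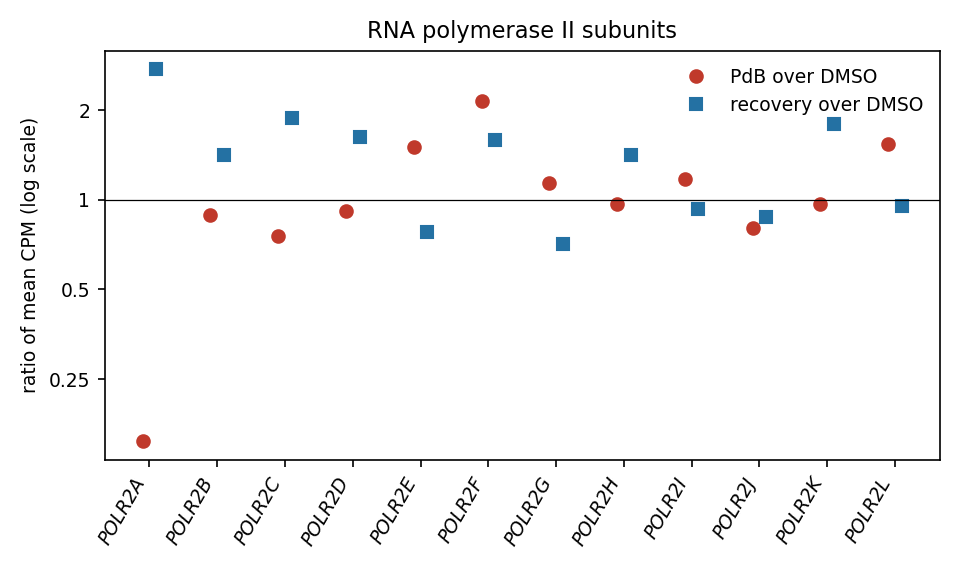
Ratios of mean CPM over DMSO, on a log scale, for the 12 genes of RNA polymerase II, with PdB as circles and recovery as squares. POLR2A has the lowest PdB ratio, 0.155, and the highest recovery ratio, 2.74, of the genes drawn, while the others range from 0.758 to 2.14 under PdB and from 0.709 to 1.88 at recovery.

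Of the other 6 members that act in transcription, chromatin or RNA, SAFB2 and RNF20 held the most counts. SAFB2, a scaffold protein that binds chromatin and RNA, had 57.3, 57.2 and 56.9 CPM in PdB libraries, 281, 285 and 285 CPM at recovery and 115, 118 and 115 CPM in DMSO libraries. The libraries of each group were nearly equal. Its PdB ratio was 0.492, near the edge, and it did not meet the rule with TMM or RLE factors. Of the sequence of SAFB2, 13.5% of 75-base stretches also stand in another gene, and its paralog SAFB, not a member, had a PdB ratio of 0.561 and a recovery ratio of 2.36. RNF20 is a ubiquitin ligase that, with its partner RNF40, modifies histone H2B on transcribed genes. It had 18.2, 14.7 and 15.4 CPM in PdB libraries, 129, 121 and 116 CPM at recovery and 49.9, 50.3 and 50.9 CPM in DMSO libraries. The PdB mean of RNF20 was 0.32 of DMSO and its recovery mean 2.42 times DMSO, whereas RNF40 had ratios of 0.798 and 1.87. INO80C, a subunit of the INO80 chromatin remodeller, had a PdB ratio of 0.304 and a recovery ratio of 2.41. The histone demethylase gene KDM7A had ratios of 0.285 and 2.12. ZCCHC4, which methylates ribosomal RNA, had ratios of 0.304 and 2.23, and SRRM3, a splicing factor of the SRRM family, 0.424 and 2.05. Among 5 zinc finger genes (ZNF587B, ZNF641, ZNF311, ZNF836 and ZNF563) the PdB ratios were 0.188 to 0.472 and the recovery ratios 2.03 to 2.59.

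The largest group with a shared role held 14 genes of innate immunity or known to respond to interferon, the cytokine family of antiviral defence. They were HELZ2, GBP3, GBP1, TBK1, PARP12, APOL6, SAMD9L, APOL2, TRIM34, NLRP3, IRF5, IL15, TLR3 and CLEC2B. Their PdB ratios were 0.0926 to 0.425, with a median of 0.3, and their recovery ratios 2.0 to 3.3, with a median of 2.36. Of the 14, 11 met the rule with both TMM and RLE factors. Leukocytes also express many of these genes, and the leukocyte marker list summed to 112 to 131 CPM in PdB, 90.5 to 95.6 CPM at recovery and 101 to 111 CPM in DMSO, almost all of it from CD68. Of this list, PTPRC and CD3E were under 1 CPM in each group and NKG7 was at 0, while CD79A averaged 1.11 CPM in PdB. HBB, a red blood cell gene that the list also held, was at 0. The part of leukocytes in the levels of these 14 genes was not tested.

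HELZ2, a helicase and transcriptional coactivator induced by interferon, had 8.04, 6.03 and 9.9 CPM in PdB libraries, 128, 128 and 136 CPM at recovery and 70.0, 57.5 and 68.4 CPM in DMSO libraries. Its PdB mean was 0.122 of DMSO, while its recovery mean sat on the threshold at 2.0-fold, and it did not meet the rule with TMM or RLE factors. The guanylate-binding proteins are interferon-induced GTPases that coat intracellular pathogens. GBP3 (chr1:89006666-89022894, minus strand) had 5.39, 5.29 and 7.06 CPM in PdB libraries, 95.1, 93.3 and 94.7 CPM at recovery and 43.8, 40.5 and 47.1 CPM in DMSO libraries. For GBP1, its neighbour (chr1:89052319-89065360, minus strand), the values were 8.28, 9.72 and 14.6 CPM in PdB libraries, 77.3, 74.5 and 87.0 CPM at recovery and 32.2, 29.4 and 34.0 CPM in DMSO libraries. The PdB ratios were 0.135 for GBP3 and 0.34 for GBP1, and the recovery ratios 2.15 and 2.49. Outside the set, GBP2 had a PdB ratio of 0.6 and a recovery ratio of 1.53, and GBP4, at no more than 3.12 CPM on average in any group, 0.301 and 1.41.

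Sensors and signalling enzymes of innate immunity were among these members. TBK1, the kinase that activates interferon regulatory factors downstream of nucleic acid sensors, averaged 11.3 ± 0.674 CPM in PdB, 62.5 ± 3.65 CPM at recovery and 30.5 ± 2.61 CPM in DMSO (SD, n = 3 each). Its paralog IKBKE was also low under PdB, with a ratio of 0.297, but had a recovery ratio of 0.813. TLR3, the endosomal receptor for double-stranded RNA, had 0.469, 0.284 and 0.408 CPM in PdB libraries, 4.46, 3.06 and 5.0 CPM at recovery and 1.82, 0.81 and 1.21 CPM in DMSO libraries. IRF5, an interferon regulatory factor, had a PdB ratio of 0.282 and a recovery ratio of 2.88. NLRP3, the sensor of an inflammasome, stood at 1.27 ± 0.372 CPM in PdB, 11.4 ± 0.129 CPM at recovery and 4.21 ± 0.296 CPM in DMSO. Effectors included PARP12, an ADP-ribosyltransferase induced by interferon, with 6.31, 6.35 and 7.98 CPM in PdB libraries, 57.6, 59.0 and 66.7 CPM at recovery and 26.0, 27.7 and 32.6 CPM in DMSO libraries. Its relative ZC3HAV1 had ratios of 0.7 and 1.7. SAMD9L, an antiviral growth suppressor, had ratios of 0.326 and 2.35, while its paralog SAMD9 had 0.64 and 1.72. The apolipoprotein L genes APOL6 and APOL2 had PdB ratios of 0.297 and 0.304 and recovery ratios of 2.14 and 2.83, while APOL1 had 0.815 and 1.15 and APOL3 0.148 and 1.59. CLEC2B, a lectin-like surface protein recognised by natural killer cells, had the lowest PdB ratio of the group, at 0.0926, with 0.141, 0.0947 and 0.0177 CPM in PdB libraries, 2.85, 2.69 and 3.47 CPM at recovery and 1.04, 0.616 and 1.07 CPM in DMSO libraries. The PdB libraries of CLEC2B held as few as 1 count. TRIM34 shares 89.5% of its 75-base stretches with other genes, so its values are uncertain.

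Among these 14 genes replicate 3 was often the highest of its group, in 12 of 14 genes in PdB, 9 of 14 at recovery and 9 of 14 in DMSO. Over all 121 members replicate 3 was the highest of its group in 59.5% in PdB, 41.3% at recovery and 47.1% in DMSO, and over all 20812 genes tested in 43.2% in PdB, 39.3% at recovery and 36.2% in DMSO. With replicate 3 of PdB left out, 142 genes met the rule, 117 of them among the 121. Leaving it out lowers the PdB mean wherever it was the highest, so this count does not measure its part in the 14 genes.

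**Figure D4:**
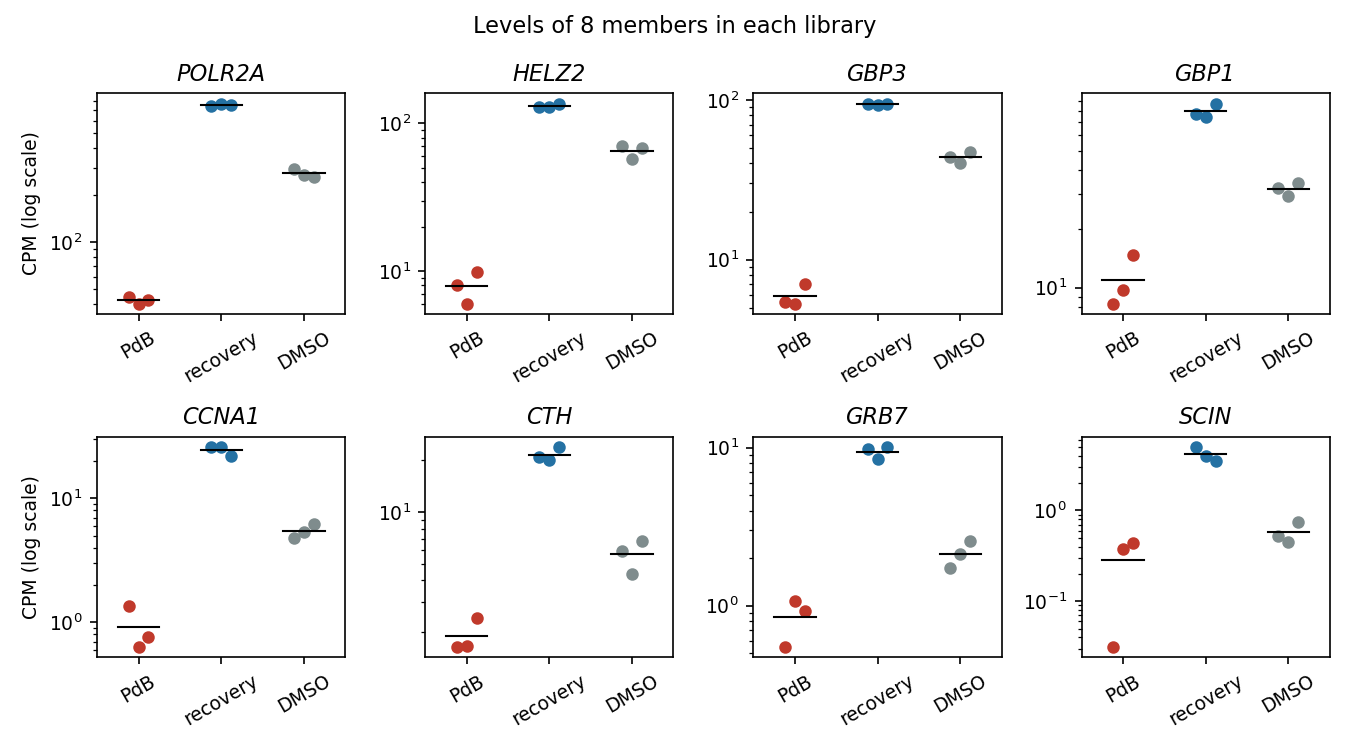
CPM on a log scale in each of the 9 libraries for 8 members, with points for libraries and a line for the group mean. PdB is lowest and recovery highest in each panel, with no overlap between groups, which the choice of members fixes. The spread between libraries is wider at low levels, as in SCIN under PdB, than at high levels, as in POLR2A.

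The promoters of 4 of these genes, picked for their matches, are shown because they share a short motif, the core of the interferon-stimulated response element (GAAA and GAAA with any 2 bases between them), read on either strand and set in capitals. The motif was added to the search after the members were known. All windows run from 250 bases before to 50 after the RefSeq start (GRCh38.p14), and all 4 matches are on the strand opposite to the gene. The match starts at position -127 in GBP1 (chr1:89065159-89065458, minus strand), at 2 in GBP3 (chr1:89022817-89023116, minus strand), at -10 in PARP12 (chr7:140062902-140063201, minus strand) and at -4 in TLR3 (chr4:186068906-186069205, plus strand), counted from 0 at the annotated start:

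GBP1: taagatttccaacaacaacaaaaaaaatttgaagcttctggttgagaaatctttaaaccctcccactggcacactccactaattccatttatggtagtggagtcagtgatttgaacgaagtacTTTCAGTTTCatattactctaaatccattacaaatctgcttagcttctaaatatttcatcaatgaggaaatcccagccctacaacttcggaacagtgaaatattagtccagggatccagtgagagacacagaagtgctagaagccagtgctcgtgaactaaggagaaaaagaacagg

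GBP3: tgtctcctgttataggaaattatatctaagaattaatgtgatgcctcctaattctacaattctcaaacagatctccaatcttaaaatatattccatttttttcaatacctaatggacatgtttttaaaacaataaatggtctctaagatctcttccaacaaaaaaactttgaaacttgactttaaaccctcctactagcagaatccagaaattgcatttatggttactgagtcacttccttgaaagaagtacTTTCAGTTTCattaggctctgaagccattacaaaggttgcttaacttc

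PARP12: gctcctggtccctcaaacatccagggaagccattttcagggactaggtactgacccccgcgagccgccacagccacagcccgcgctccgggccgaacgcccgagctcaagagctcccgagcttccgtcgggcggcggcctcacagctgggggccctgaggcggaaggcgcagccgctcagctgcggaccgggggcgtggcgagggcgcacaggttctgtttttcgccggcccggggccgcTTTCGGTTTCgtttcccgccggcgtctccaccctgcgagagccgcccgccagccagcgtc

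TLR3: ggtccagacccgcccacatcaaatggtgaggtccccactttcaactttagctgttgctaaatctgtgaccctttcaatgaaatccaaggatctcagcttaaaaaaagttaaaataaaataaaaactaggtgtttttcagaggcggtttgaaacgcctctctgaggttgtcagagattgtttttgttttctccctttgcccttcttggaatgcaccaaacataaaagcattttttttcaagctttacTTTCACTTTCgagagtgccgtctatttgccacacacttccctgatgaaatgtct

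The core was present in 9 of the 81 members with a promoter in the RefSeq table (11.1%), against 3.65% of all 27305 promoters. The other 5 were TRIM34, which belongs to the same 14 genes, and ASAH2B, C2CD4D-AS1, TEP1 and ZNF311, which do not. Of the 14 genes 10 had a promoter in the table, and 5 of these, HELZ2, IRF5, NLRP3, SAMD9L and TBK1, held no match. A match of letters is not evidence of binding. Other motifs were searched on both strands in the same windows. The GC box GGGCGG was in 64.2% of member promoters and 44.6% of all, the ETS site CCGGAAG in 17.3% and 10.7%, the E-box CACGTG in 11.1% and 7.43%, and the cAMP response element TGACGTCA in 6.17% and 1.98%. The AP-1 site TGANTCA was in 7.41% and 7.76%, the CCAAT box in 27.2% and 35.7%, and the TATA box TATAAA in 6.17% and 12%. Member promoters had a median GC content of 64.7%, against 58.3% for all promoters, and the part of GC content in these shares was not tested.

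Other genes known to be stimulated by interferon moved in both directions. Of a list of 34 such genes 33 were matched, and GBP1 was the only member among them. Of the 32 others that were tested with edgeR, 8 were higher and 17 lower in PdB than in DMSO, where 32.0% of all tested genes were higher and 38.2% lower, and the median log2 change was -0.64 against -0.11 over all tested genes. At recovery 8 were higher and 10 lower than in DMSO, where 30.7% and 30.5% of all tested genes were, with a median of -0.14 against 0.03. The count of 8 higher became 5 without DMSO replicate 2. Between recovery and PdB, 17 were higher and 8 lower at recovery (34.6% and 31.5% of all tested genes), with a median of 0.55 against 0.06. The largest called rise at recovery against DMSO was in OAS1, an antiviral synthetase that responds to double-stranded RNA, with 2.84 ± 0.643 CPM at recovery and 1.17 ± 0.492 CPM in DMSO (log2 change 1.21 ± 0.44 SE, edgeR adjusted p = 0.024). Its call ended without DMSO replicate 1 or 2 or recovery replicate 2 or 3 (adjusted p = 0.056 to 0.1). The largest called fall was in ISG20, an exonuclease, with 2.39 ± 0.261 CPM at recovery and 3.74 ± 1.02 CPM in DMSO (log2 change -0.72 ± 0.25 SE, edgeR adjusted p = 0.02), and this call ended without DMSO replicate 3 (adjusted p = 0.14) or without recovery replicate 2 or 3 (0.077 and 0.05). IRF1, a transcription factor of the interferon response, was lower in PdB than in DMSO (log2 change -0.56 ± 0.096 SE, edgeR adjusted p = 4.6e-05) and higher at recovery (0.74 ± 0.094, adjusted p = 1.6e-06). IRF1 was picked after its values were seen.

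Genes of the actin and microtubule cytoskeleton and of the small GTPases that control it made up 13 members, with PdB ratios of 0.115 to 0.494 and recovery ratios of 2.0 to 7.23. LMO7, a protein that links actin to cell junctions, had 46.5, 44.5 and 42.5 CPM in PdB libraries, 346, 334 and 309 CPM at recovery and 135, 126 and 123 CPM in DMSO libraries. Of its 75-base stretches 13.1% also stand in another gene, and 8.93% of its exon bases overlap ENSG00000261553 on the same strand. That gene, not a member, averaged 43.4 CPM in PdB, 100 CPM at recovery and 73.5 CPM in DMSO. ARHGEF2, a microtubule-bound activator of RhoA, had 71.1, 61.6 and 58.7 CPM in PdB libraries, 304, 294 and 291 CPM at recovery and 151, 137 and 143 CPM in DMSO libraries. Both genes had well separated groups, but ARHGEF2, with a PdB ratio of 0.445 and a recovery ratio of 2.06, did not meet the rule with TMM or RLE factors. MAPRE2, a protein of growing microtubule ends, had 5.37, 5.43 and 7.39 CPM in PdB libraries, 83.9, 85.6 and 84.9 CPM at recovery and 29.1, 27.7 and 31.4 CPM in DMSO libraries, which gives ratios of 0.206 and 2.88. FGD4, an activator of CDC42, had 0.437, 0.363 and 0.94 CPM in PdB libraries, 6.78, 7.95 and 7.01 CPM at recovery and 1.98, 1.44 and 1.52 CPM in DMSO libraries. Its recovery mean was 4.4 times the DMSO mean. ARHGAP42 and RHPN2, which act on or bind RhoA, had PdB ratios of 0.232 and 0.384 and recovery ratios of 2.25 and 2.3.

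The largest recovery ratio of the set was in SCIN, which encodes scinderin, an actin-severing protein. SCIN (chr7:12570577-12660179, plus strand) had 0.0312, 0.379 and 0.443 CPM in PdB libraries, 5.0, 4.02 and 3.48 CPM at recovery and 0.529, 0.454 and 0.746 CPM in DMSO libraries. The recovery mean was 7.23 times the DMSO mean, while the PdB ratio of 0.494 was just inside the threshold and the PdB and DMSO libraries nearly touched. One PdB library held 2 counts, and SCIN did not meet the rule with TMM or RLE factors. ARHGEF35 had 0.187, 0.0316 and 0.248 CPM in PdB libraries, 2.65, 2.64 and 3.22 CPM at recovery and 0.953, 1.33 and 1.77 CPM in DMSO libraries. It shares 53.5% of its 75-base stretches with its near copies ARHGEF5 and ARHGEF34P, which are also members, so the values of these 3 genes are not independent.

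Germ cell and cell cycle genes contributed some of the largest rises. CCNA1, a cyclin best known from male germ cells, had 1.36, 0.631 and 0.763 CPM in PdB libraries, 26.0, 25.8 and 22.0 CPM at recovery and 4.76, 5.36 and 6.19 CPM in DMSO libraries. The 3 groups were widely separated, with a PdB ratio of 0.169 and a recovery ratio of 4.53. Its paralog CCNA2, the cyclin A of dividing somatic cells, had a PdB ratio of 0.499 and a recovery ratio of 1.04. TEX14, a protein of the bridges between germ cells, had 0.406, 0.0631 and 0.213 CPM in PdB libraries, 2.58, 1.87 and 2.26 CPM at recovery and 0.484, 0.421 and 0.507 CPM in DMSO libraries, so its recovery ratio of 4.75 rested on a DMSO level below 1 CPM. The PdB ratio of TEX14 was 0.483, near the threshold, and its PdB and DMSO libraries nearly touched. TEX14 did not meet the rule with TMM or RLE factors. BRME1, a protein of meiotic recombination, had ratios of 0.169 and 2.02. FAAP24, which belongs to the Fanconi anaemia core complex of DNA crosslink repair, had ratios of 0.368 and 2.62, and TEP1, a component of the vault particle that also binds telomerase RNA, 0.361 and 2.53.

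Membrane traffic and autophagy genes numbered 7. TRAPPC4, a subunit of the TRAPP tethering complexes, had 11.3, 10.4 and 12.7 CPM in PdB libraries, 183, 181 and 187 CPM at recovery and 71.6, 84.0 and 84.9 CPM in DMSO libraries. This gives a PdB ratio of 0.143 and a recovery ratio of 2.29, and recovery was 16.0-fold above PdB. SYT17, of the synaptotagmin family, had 0.0312, 0.126 and 0.124 CPM in PdB libraries, 4.58, 4.26 and 4.35 CPM at recovery and 0.741, 1.0 and 1.04 CPM in DMSO libraries. Its recovery ratio was 4.73, and its level at recovery was 46.8-fold above that in PdB, where 1 library held 2 counts. ATG16L1, which directs lipidation of LC3 in autophagy, had ratios of 0.447 and 2.11, while its complex partners ATG5 and ATG12 had PdB ratios of 1.05 and 0.918 and recovery ratios of 1.09 and 1.71. MON1B, NECAP1, CHMP4C and SYT12 had PdB ratios of 0.302 to 0.49 and recovery ratios of 2.01 to 3.13.

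In the group of 12 signalling genes and receptors, CALCR had the lowest PdB ratio of all 121 members. CALCR encodes the calcitonin receptor and had 0, 0.0631 and 0.142 CPM in PdB libraries, 3.84, 3.12 and 3.06 CPM at recovery and 1.04, 1.02 and 1.39 CPM in DMSO libraries. The ratio of 0.0594 rested on a PdB level near the floor of counting, with 0 counts in 1 library. FRMD8, which stabilises the iRhom and ADAM17 sheddase complex, was low at a firmer level, with 4.8, 4.75 and 4.97 CPM in PdB libraries, 92.5, 83.9 and 89.4 CPM at recovery and 31.5, 33.5 and 36.8 CPM in DMSO libraries. The PdB mean of FRMD8 was 0.142 of DMSO and recovery was 18.3-fold above PdB. GRB7, an adaptor of receptor tyrosine kinases, had 0.547, 1.07 and 0.922 CPM in PdB libraries, 9.78, 8.48 and 10.1 CPM at recovery and 1.72, 2.11 and 2.57 CPM in DMSO libraries, with a recovery ratio of 4.43. PRKAB2, a regulatory subunit of the energy sensor AMPK, had ratios of 0.467 and 2.73, while its paralog PRKAB1, with 1.51 and 2.09, was above DMSO in both groups.

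TGFBR3, the co-receptor betaglycan that presents TGF-beta to its signalling receptors, had 10.2, 9.33 and 9.35 CPM in PdB libraries, 43.5, 39.5 and 42.8 CPM at recovery and 18.7, 18.9 and 20.6 CPM in DMSO libraries. Its PdB ratio of 0.496 was the highest of the set, and it did not meet the rule with TMM or RLE factors. Of the other 24 TGF-beta and SMAD genes listed, all tested with edgeR, 14 were higher and 8 lower in PdB than in DMSO (32.0% and 38.2% of all tested genes), with a median log2 change of 0.29. At recovery 13 were higher and 9 lower than in DMSO (30.7% and 30.5% of all tested genes), with a median of 0.22. Between recovery and PdB 11 were higher and 11 lower at recovery (34.6% and 31.5% of all tested genes), with a median of 0.10 against 0.06 over all tested genes. BAMBI, a decoy receptor that dampens TGF-beta signals, had the largest called rise at recovery against DMSO. It had 34.9 ± 2.66 CPM at recovery and 7.59 ± 0.699 CPM in DMSO (log2 change 2.13 ± 0.095 SE, edgeR adjusted p = 1.4e-12). BAMBI was already higher in PdB than in DMSO, at 44.2 ± 4.03 CPM (2.74 ± 0.096, edgeR adjusted p = 1.6e-14). At recovery it was lower than in PdB (-0.61 ± 0.087, edgeR adjusted p = 5.8e-06). The signalling receptors TGFBR1 and TGFBR2 were lower in PdB (log2 changes -0.47 ± 0.083 and -0.47 ± 0.054 SE, adjusted p = 5.8e-05 and 3e-07). At recovery TGFBR2 was lower than DMSO (-0.25 ± 0.054, adjusted p = 0.00046) and TGFBR1 did not pass the test (0.02 ± 0.082, adjusted p = 0.85).

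The other 12 gene lists compared held no member. As only 121 of the 20812 tested genes were members, lists of 20 to 31 genes would mostly hold none. The absence is therefore no result about these lists. They covered p53 targets, hypoxia response, Notch, YAP and TEAD targets, NF-kB and cytokines, MAPK feedback, KLF and circadian regulators, cholesterol and lipid regulation, FOXO and MondoA targets, cell-cell junctions, nuclear envelope and cytoskeletal linkers, and the SF3B and U2 snRNP genes themselves. Their median log2 changes in PdB ran between -0.94 in the cell-cell junction genes and 1.09 in the KLF and circadian regulators, against -0.11 over all tested genes. At recovery they ran between -0.82 in the nuclear envelope and linker genes and 0.95 in the FOXO and MondoA targets, against 0.03 over all tested genes. In the 20 genes of SF3B and U2 snRNP, the complex that pladienolide B binds and its surroundings, 11 were higher and 7 lower in PdB than in DMSO (32.0% and 38.2% of all tested genes), and 15 were higher and 3 lower at recovery (30.7% and 30.5% of all tested genes).

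Metabolic and mitochondrial members included CTH, the enzyme that makes cysteine from cystathionine. CTH had 1.64, 1.66 and 2.41 CPM in PdB libraries, 20.8, 20 and 23.8 CPM at recovery and 5.9, 4.34 and 6.82 CPM in DMSO libraries, a PdB ratio of 0.335 and a recovery ratio of 3.78. B3GNT7, a glycosyltransferase that extends keratan sulfate chains, had 0.312, 0.205 and 0.0532 CPM in PdB libraries, 2.65, 2.88 and 3.76 CPM at recovery and 0.787, 0.859 and 1.19 CPM in DMSO libraries, with 3 counts in 1 PdB library. ASAH2B, a shortened copy of the ceramidase gene ASAH2, had 1.34, 0.868 and 1.65 CPM in PdB libraries, 20.3, 19.5 and 18.5 CPM at recovery and 10.6, 8.46 and 9.4 CPM in DMSO libraries. It shares 55.7% of its 75-base stretches with ASAH2, so its counts are uncertain, and its recovery ratio of 2.05 did not meet the rule with TMM factors. MTX3, of the metaxin family at the outer mitochondrial membrane, had 13.6, 12.6 and 12.9 CPM in PdB libraries, 107, 108 and 99.2 CPM at recovery and 37.9, 35.6 and 32.2 CPM in DMSO libraries. Its groups were far apart, with ratios of 0.37 and 2.97.

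Of the remaining protein-coding members with high counts, PITHD1 had 12, 10.8 and 12.7 CPM in PdB libraries, 93.6, 91.9 and 84.7 CPM at recovery and 38.9, 35.8 and 36.2 CPM in DMSO libraries. TMC6, a gene of the transmembrane channel-like family mutated in epidermodysplasia verruciformis, had 13.8, 15.5 and 21.5 CPM in PdB libraries, 82.4, 83.3 and 83.6 CPM at recovery and 35.1, 34.8 and 40.7 CPM in DMSO libraries. Its PdB ratio was 0.46, PdB replicate 3 was the highest of its group, and it shares 24.5% of its 75-base stretches with other genes. TRIML2, of the tripartite motif family, had 0.625, 0.789 and 0.833 CPM in PdB libraries, 8.81, 7.86 and 8.64 CPM at recovery and 1.97, 2.35 and 1.7 CPM in DMSO libraries. The recovery mean of TRIML2 was 4.21 times the DMSO mean, 1 of the 7 that reached 4-fold. These 7 were SCIN, TEX14, SYT17, CCNA1, GRB7, FGD4 and TRIML2, and CCNA1, at up to 26.0 CPM, held the most counts of them.

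Genes of the extracellular matrix were represented by COL1A1 and SPARC. COL1A1, the alpha 1 chain of type I collagen, had 2.73, 1.82 and 2.71 CPM in PdB libraries, 25.7, 25.5 and 26.2 CPM at recovery and 10.1, 8.13 and 8.4 CPM in DMSO libraries. It stands in the list of fibroblast markers, whose 9 genes summed to 5.83 to 12.2 CPM in PdB, 34.8 to 40.7 CPM at recovery and 16.6 to 23.7 CPM in DMSO, COL1A1 included. Of that list, DCN, PDGFRA and THY1 were under 1 CPM in each group, and the part of such cells in the result was not tested. Of the 6 other markers of this list tested with edgeR, 1 was higher and 2 lower in PdB than in DMSO (32.0% and 38.2% of all tested genes), and 3 were higher and 1 lower at recovery (30.7% and 30.5% of all tested genes), with a median log2 change of 1.57 at recovery. COL1A2, the partner chain of type I collagen, had mean levels of 3.52 CPM in PdB, 1.61 CPM at recovery and 2.3 CPM in DMSO. The chain of type III collagen, COL3A1, had means of 0.0697 CPM in PdB, 1.24 CPM at recovery and 0.0054 CPM in DMSO, and the proteoglycan LUM 0.321 CPM in PdB, 1.32 CPM at recovery and 0.121 CPM in DMSO. The means of the receptor PDGFRB were 1.75 CPM in PdB, 6.53 CPM at recovery and 7.15 CPM in DMSO. SPARC, a collagen-binding matrix protein, had 0.312, 0.395 and 0.603 CPM in PdB libraries, 1.82, 2.21 and 2.23 CPM at recovery and 0.938, 1.26 and 0.776 CPM in DMSO libraries. SPARC lay just above the minimum level and did not meet the rule with TMM or RLE factors.

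Non-coding genes and pseudogenes with a symbol numbered 17, and 13 further members had no symbol. SNHG7, the host of small nucleolar RNAs in its introns, had 33.2, 36.1 and 30.2 CPM in PdB libraries, 146, 154 and 130 CPM at recovery and 66.7, 71.2 and 66.6 CPM in DMSO libraries. Its PdB ratio of 0.487 did not hold below 0.5 with TMM or RLE factors, and 25.2% of its exon bases overlap DIPK1B on the opposite strand. SNHG4, another such host gene, had ratios of 0.371 and 2.19. MIR29B2CHG, the host of miR-29 family members, had 0.271 and 2.17. By annotation type, 94 members were protein-coding, 8 antisense, 6 transcribed unprocessed pseudogenes and 4 long intergenic RNAs, and 120 of the 121 were found in GENCODE 29.

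Whether counting used strand is not stated in the sources, and some members share their reads with others. Exons of 57 members overlap those of another gene, and 12 members share more than 50% of their 75-base stretches with other genes. ENSG00000283704 lies wholly within TRAPPC4 exons and had 0.125 and 2.22 as its ratios, close to the 0.143 and 2.29 of TRAPPC4. KIAA0408 with ENSG00000255330, SCHIP1 with IQCJ-SCHIP1, INO80C with ENSG00000267140 and NECAP1 with ENSG00000284697 are likewise overlapping pairs on the same strand, so each pair counts in part the same reads. TMEM262 had 0.156, 0 and 0.195 CPM in PdB libraries, 2.37, 2.01 and 1.74 CPM at recovery and 1.24, 0.729 and 0.955 CPM in DMSO libraries. Of its exon bases, 56.1% overlap ZFPL1 on the opposite strand, which averaged 4.83 CPM in PdB, 55.5 CPM at recovery and 39.4 CPM in DMSO. The part of ZFPL1 reads in the level of TMEM262 was not tested. Leaving out every member with more than 10% of shared sequence or exon overlap left 81.

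Other members were neighbours in the genome without overlap. In 10 pairs, made of 16 members, the genes lay within 100 kb of each other. GBP3 and GBP1 were 29.4 kb apart, PARP12 and KDM7A 21.0 kb, and FAAP24 and RHPN2, on opposite strands, 0.37 kb. TNK1, TMEM102 and POLR2A followed each other on chromosome 17, with 45.7 kb and 46.7 kb between them. TNK1, a non-receptor tyrosine kinase, had ratios of 0.386 and 2.92 and TMEM102 of 0.276 and 2.59, beside 0.155 and 2.74 in POLR2A.

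The structure of the genes was not used to choose them. Members had a median of 6.0 introns in their longest annotated transcript and a median genomic span of 22.8 kb. Genes with the same fall under PdB but back within 2-fold of DMSO at recovery (3089 genes) had medians of 10.0 introns and 43.6 kb. Those still at 0.5 or less at recovery (801 genes) had 12 introns and 70.5 kb. Genes with the same rise at recovery but no such fall under PdB (1580 genes) had 3.0 introns and 15.4 kb, and all tested genes 4.0 introns and 20.6 kb. In these medians the members lay between the genes that only fell and those that only rose. Of the members, 4.17% had no intron, against 3.55% of the genes that returned, 3.0% of those still low, 20.6% of those that rose without a fall and 16.5% of all tested genes. More than 20 introns were found in 7.5% of members, against 17.6% of those that returned and 24.4% of those still low. Among protein-coding genes the median introns were 7.0 in members, 10.0 in those that returned, 12.5 in those still low, 5.0 in those that rose without a fall and 7.0 in all tested genes. Their median spans were 25.7 kb in members, 46.6 kb in those that returned, 71.8 kb in those still low, 22.6 kb in those that rose without a fall and 32.8 kb in all tested genes. Protein-coding members again lay between the genes that only fell and those that only rose, but their median intron number equalled that of all protein-coding genes tested and their median span was shorter. The sets also differed in level: over the genes with an annotated structure (120 of the 121 members), the median DMSO mean was 4.91 CPM in members, 27.6 CPM in genes that returned, 32.9 CPM in genes still low, 6.62 CPM in genes that rose without a fall and 9.35 CPM in all tested genes. The part of level in the difference of structure was not tested.

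**Figure D5:**
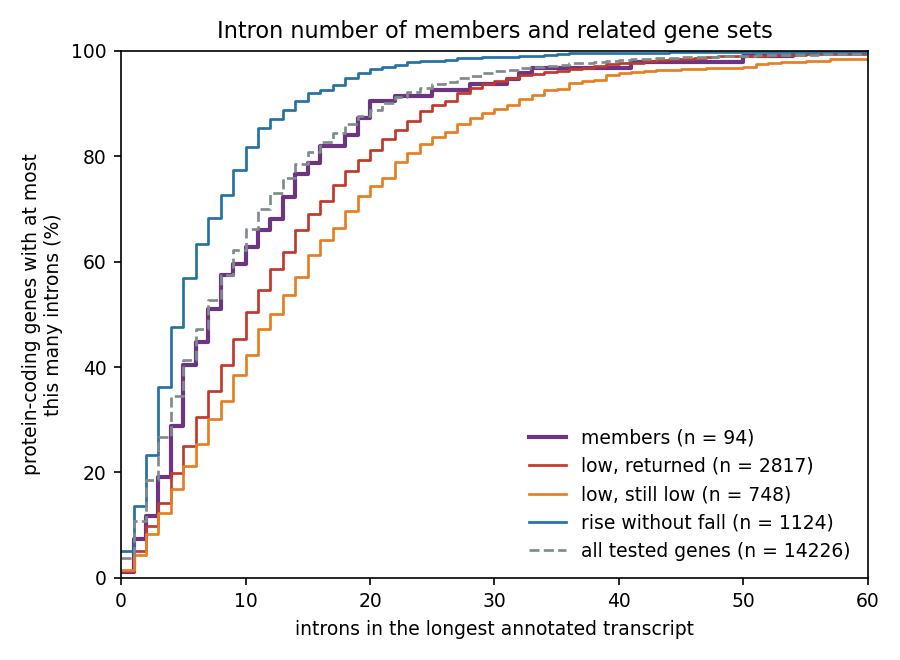
Cumulative share of protein-coding genes by the number of introns in their longest annotated transcript, for the members and 4 other gene sets. The curve of the members lies near that of all tested genes, left of the genes that returned or stayed low and right of those that rose without a fall. Median introns are 7.0 in members, 10.0 in returned, 12.5 in still low and 5.0 in rise without fall.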

How the data were processed

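RNA was sequenced in 9 libraries of MDA-MB-231 cells, 3 each of PdB, recovery and DMSO. The authors deposited 1 table of read counts per gene, whole numbers with no scaling. The tools named in the submitters' processing notes are DESeq2 1.30.0, featureCounts 2.0.3, STAR 2.7.9a, fastp 0.23.2 and Picard, and the build is hg38. Settings, annotation release and use of strand were not given in the sources used here. Annotation came from GENCODE 29 and symbols from a gene name table (42028 of 60708 IDs).

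From the deposited counts, CPM on library totals, group means and ratios chose the members. Genes were tested two-sided with edgeR 4.0.16 (R 4.3.3), quasi-likelihood, filterByExpr, TMM, a shared fit of the 9 libraries, and Benjamini-Hochberg adjustment over 20812 genes at 0.05. The script was tested on simulated counts, where it called 71.6% to 76.1% of 1.5-fold changes and 98.5% to 100% of 2-fold changes. Of its calls there, 1.6% to 6.25% were false, the most for recovery against PdB. The simulation changed far fewer genes than were called in these data. Given with values per library were the 15 members with the highest recovery CPM, the 10 with the largest recovery ratio and the 10 with the lowest PdB ratio, without clone or locus names, and members of gene lists; PARP12 and TLR3 were added outside this rule after their values and promoter matches were seen; in lists, the largest called changes of non-members at recovery against DMSO were named. Some genes that these rules give are not reported here. Members and lists were chosen with earlier results of these data known. Role groups and partner genes were chosen after values were seen. Alternatives were RLE and library-total scaling, no filter, DESeq2 1.42.0, a replicate block, each library left out, and other thresholds. Low counts were read for counting error alone, as PCR copies of a molecule were not marked by identifiers.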

Additional observations from a re-analysis of the deposited data

How the results depend on the processing

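The membership of 121 genes depended on scaling and thresholds: 76 genes met the rule with TMM-scaled CPM, 78 with RLE-scaled CPM, 604 with ratio thresholds of 0.67 and 1.5, and 8 with 0.33 and 3. The TMM and RLE sets, and the 8, were subsets of the 121. With a recovery minimum of 1 CPM 164 genes met it, with 5 CPM 91, without the separation condition 126, with group medians 122 (104 of the 121), and with single libraries left out 112 to 142. Of the 121, 71 met the rule in all 9 of those runs and 60 in these and with both scalings. Without genes sharing sequence or exons, an alternative chosen after seeing the data, 81 were left. The 704 recomputed log2 ratios of named members kept their sign, which the choice of members by fold and separation fixes. Of these ratios 25 moved by more than the spread between replicates, 11 of them with TMM and 14 with RLE and none with a library left out. Interferon-stimulated genes higher at recovery numbered 5 to 9 with single libraries left out, against 8 with all. Deviations from the group means correlated across genes by r -0.00323 to 0.048 in same-numbered libraries, highest between those numbered 3 (0.0435 to 0.048), and by -0.0615 to 0.0263 in other pairs. No pair passed 0.1, so libraries were not paired by number. With the replicate block, 6638 genes were higher and 7990 lower in PdB than in DMSO (6656 and 7944 without it), and 6464 higher and 6458 lower at recovery than in DMSO (6390 and 6356 without it). The remaining alternatives kept the counts of calls, over all genes and in the 2 lists with a member, within 1.5 times. Members under about 1 CPM in PdB rest on few counts, and the size of their ratios is limited by depth.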
